A study of Mus musculus with 9 samples.

Results

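The 10 genes described here are the core circadian clock genes and their direct outputs that were picked by symbol from the deposited count table: Clock, Per1, Per2, Per3, Cry1, Cry2, Nr1d1, Nr1d2, Ciart and Dbp. All 10 had a row, of 56748 genes in all. They were measured by bulk RNA-seq of liver in 9 libraries of C57BL/6J mice (C57BL/6 in the sample labels), in 3 groups of 3. The Control mice carry the treatment label water, with no DSS named, and received 200 µL sterile water by mouth. The DSS mice received dextran sulfate sodium, a polymer that injures the colon lining, at 1.8% (w/v) in drinking water for 3 cycles of 1 week, each with 1 week of recovery, and a daily oral dose of 200 µL sterile water. The Indirubin mice went through the same DSS cycles and received indirubin, an insoluble indigo-related compound, at 1 g/kg/day in the same volume. The mice were bought at 7 to 8 weeks of age and kept in a light-dark cycle with free access to food. That the Control mice were free of colitis rests on their label, since the series description has the DSS cycles precede the split into groups. The time of day at which livers were taken is not given in the sources used here, so a difference in circadian phase and a difference made by treatment cannot be told apart. In bulk liver, fewer cells of a type and less RNA per cell cannot be told apart either.

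The clock is a feedback loop. CLOCK pairs with BMAL1 (gene Arntl) and switches on genes that carry an E-box, among them the Per and Cry genes, whose proteins return to the nucleus and silence the pair. The REV-ERB receptors (Nr1d1 and Nr1d2) are switched on by the same pair and hold down Arntl, while DBP carries the rhythm to output genes through D-box sites. In liver, food intake is a strong time cue, so the phase of the liver clock can move with feeding.

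Library totals were 6514863 to 7944684 counts, of which the mitochondrial genome took 71.6 to 91.3%, leaving 569044 to 2132208 counts on nuclear genes. The 10 clock genes had 1225 counts in all, from 18 for Dbp to 326 for Clock. Of their 90 values, 60 were above 3 counts and 25 were 0. A count of 0 allows up to 3 counts, which is 0.245 to 0.727 normalized CPM (CPM, read counts scaled to a common library size after TMM correction) depending on the library, for counting error only. The hepatocyte markers matched, 7 of 8, had counts in every library and summed to 10383 to 17261 normalized CPM in Control, 8493 to 16101 in DSS and 6113 to 9536 in Indirubin. Pancreatic acinar markers (12 genes) summed to 1510 and 1503 normalized CPM in Indirubin-2 and Indirubin-3, with all 12 detected, and to 0 to 18.2 in the other 7 libraries, where 4 to 12 of the genes were at 0. Neutrophil markers (8 genes) summed to 1.16 to 3.15 in Control, 11.5 to 19.7 in DSS and 26.7 to 243 in Indirubin, with 5 or 6, 3 to 6, and 1 to 3 of the genes at 0, respectively. Endothelial markers (8 genes) summed to 35.4 to 67.4 in Control, 24.5 to 45.5 in DSS and 59.8 to 76.1 in Indirubin, and stellate cell markers (8 genes) to 110 to 175, 62.7 to 98.2 and 90.7 to 177. Macrophage markers (10 genes) summed to 107 to 179, 150.0 to 171 and 179 to 224, and cholangiocyte markers (8 genes) to 7.03 to 7.36, 9.91 to 15.7 and 8.23 to 11.1. Each macrophage sum in Indirubin was above those in DSS, and each cholangiocyte sum in DSS and Indirubin was above those in Control. The macrophage split, and that of DSS from Control in cholangiocyte markers, each lean on a single gene. Marco had 47, 380 and 833 counts in Indirubin and 76, 112 and 150 in DSS. Of 10 macrophage markers 6 were higher in Indirubin than in DSS (56.7% of all genes). Spp1 had 16, 15 and 20 counts in Control and 43, 67 and 73 in DSS. Of the cholangiocyte genes 4 were at 0 in each Control library, 3, 5 and 1 in DSS, and 4, 4 and 1 in Indirubin. Lymphocyte markers (8 genes) overlapped, at 0.97 to 5.25, 1.91 to 10.4 and 1.79 to 7.87. The part of the makeup of cell types in the clock gene values was not tested.

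None of the 10 clock genes differed between groups at an adjusted p under 0.05 in the quasi-likelihood test of edgeR, with Benjamini-Hochberg adjustment over all genes. Of 6 clock genes that passed the filter on low counts for Indirubin against DSS, 0 were called, where 0% of the 9117 genes tested were called. For DSS against Control, 0 of 3 were called (0.708% of 7482 genes), for Indirubin against Control 0 of 4 (0.236% of 8059 genes), and for any difference among the 3 groups 0 of 6 (0.659% of 9713 genes). At an unadjusted p under 0.05 the counts were 0, 0, 1 (Nr1d1) and 1 (Nr1d2), where 7.67%, 7.51%, 13.8% and 10.3% of all genes passed. DESeq2 called 0 in each and gave 1 (Per3), 0, 1 (Nr1d1) and 1 (Nr1d2) at an unadjusted p under 0.05, where it called 0.878%, 3.71%, 3.92% and 2.47% of all genes and 9.38%, 8.93%, 15.5% and 13.6% passed unadjusted. For DSS against Control it gave an adjusted p to 3853 genes only, with Clock the one clock gene among them. With no filter all 10 clock genes were tested and 0 were called, with 0, 0, 2 and 2 at an unadjusted p under 0.05, the latter Nr1d1 and Nr1d2 both times, where edgeR called 0.677%, 0.676%, 1.66% and 1.34% of all genes and 6.23%, 4.34%, 8.64% and 6.87% passed unadjusted.

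Clock, which encodes the DNA-binding partner of BMAL1, was the one gene of the 10 with counts above 3 in all 9 libraries. It had 26, 43 and 13 counts in Control, 61, 36 and 30 in DSS, and 43, 28 and 46 in Indirubin. As normalized CPM these were 5.24 ± 2.20, 5.43 ± 2.37 and 4.70 ± 2.86 (SD, n = 3), and the 3 groups overlapped fully. The log2 fold change was -0.22 for Indirubin against DSS, with a 95% interval of -1.63 to 1.19, and 0.11 for DSS against Control, with an interval of -1.20 to 1.42. Differences of about 2-fold either way are therefore inside both intervals. Its partner gene Arntl (BMAL1) varied far more within groups: 5, 16 and 1 counts in Control, 74, 15 and 10 in DSS, and 13, 34 and 6 in Indirubin. The DSS-1 library stood alone at 8.73 normalized CPM of Arntl, and the other 8 libraries held 0.24 to 2.80. Npas2, which can stand in for Clock, had 0, 0 and 3 counts in DSS, below the 7, 5 and 9 of Control and the 5, 15 and 6 of Indirubin, without overlap on the normalized scale in either comparison. The 0 of DSS-2 allows up to 0.529 normalized CPM, above the 0.516 of Indirubin-3, so the separation from Indirubin does not hold at that floor. The pseudogene Gm3617 overlaps Npas2 by 555 bases on the same strand and had 11, 22 and 27 counts in Control, 137, 55 and 35 in DSS, and 14, 1 and 16 in Indirubin, so reads there may be split between them. Every Indirubin library lay above every DSS library for 11.5% of 14848 genes with at least 15 counts, and every DSS library below every Control library for 7.07% of 11952.

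**Figure D1:**
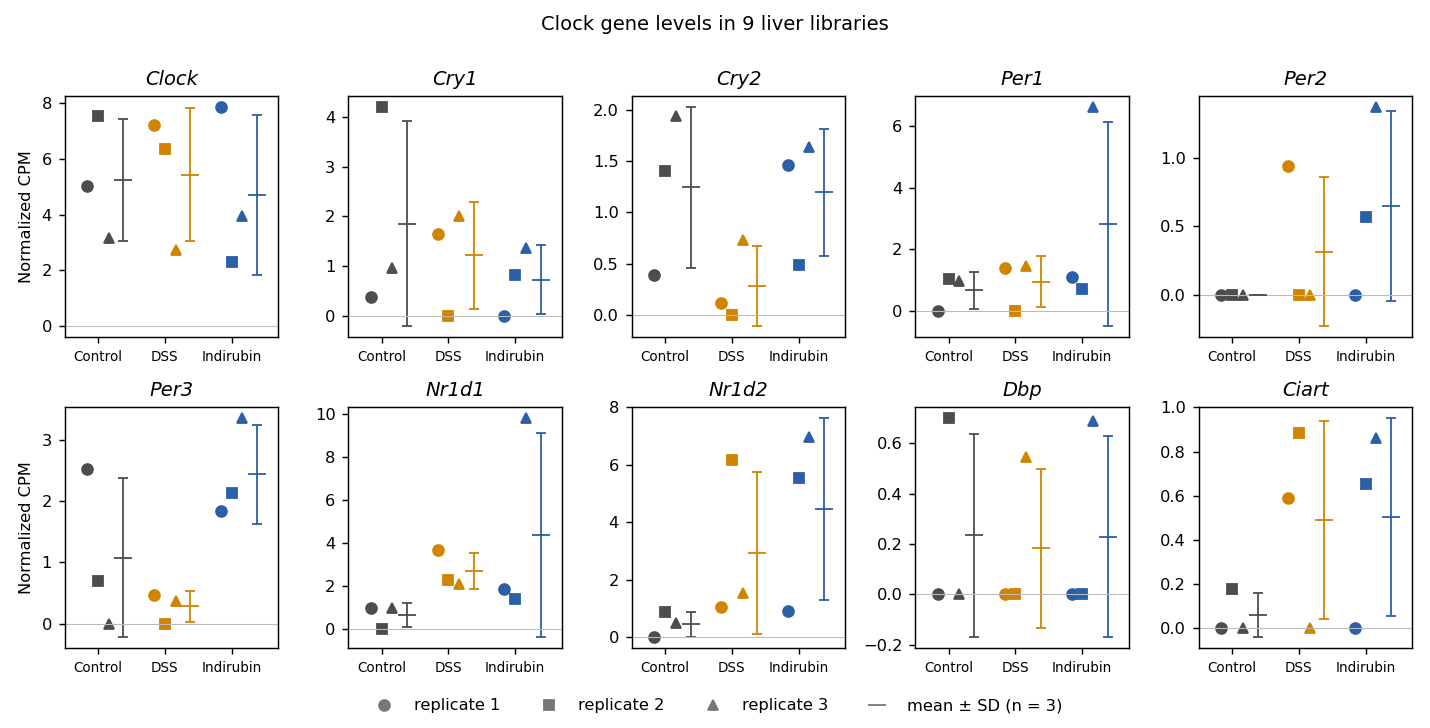
Normalized CPM (vertical axis, linear, one scale per panel) of the 10 clock genes in each library, with the marker shape giving the replicate and a bar at each group's mean ± SD (n = 3). Clock overlaps in all groups, the Control libraries are the lowest for Nr1d1 and Nr1d2, the DSS libraries lie below all Indirubin libraries for Per3, and Indirubin-3 alone is high for Per1 (6.62) and Nr1d1 (9.80).

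The REV-ERB receptors were lower in every Control library than in every DSS and every Indirubin library. Nr1d1 (REV-ERBα, a heme-binding repressor of Arntl) had 5, 0 and 4 counts in Control, 31, 13 and 23 in DSS, and 10, 17 and 114 in Indirubin. In normalized CPM, the Control libraries held 0.97, 0 and 0.97, the DSS libraries 3.66, 2.29 and 2.09, and the Indirubin libraries 1.83, 1.39 and 9.80. DSS and Indirubin overlapped, and Indirubin-3 exceeded all other libraries. The log2 fold change was 2.07 for DSS against Control (standard error 1.40, edgeR with Benjamini-Hochberg adjusted p = 0.898) and 2.78 for Indirubin against Control (standard error 1.16, adjusted p = 0.309). When each library was left out in turn, the ranges were 1.47 to 2.49 and 1.32 to 3.24, the lowest values being those without Control-2 and without Indirubin-3. Against DSS, Nr1d1 in Indirubin had a log2 difference of 0.70 (interval -1.14 to 2.54), which was -0.74 without Indirubin-3.

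Nr1d2 (REV-ERBβ, the closely related second receptor) had 0, 5 and 2 counts in Control, 9, 35 and 17 in DSS, and 5, 68 and 81 in Indirubin. The means were 0.454 ± 0.439, 2.93 ± 2.82 and 4.48 ± 3.16 normalized CPM, and DSS-1 at 1.06 and Indirubin-1 at 0.91 were just above the highest Control value of 0.88. Its unadjusted p for any difference among the groups was 0.0431, the smallest of the clock genes, and the adjusted p was 0.455 in edgeR. For Indirubin against DSS the log2 difference was 0.65 (interval -1.29 to 2.59), and 0.11 without DSS-1 and 1.70 without DSS-2. Of the clock genes with at least 15 counts, 2 of 7 (Nr1d1 and Nr1d2) lay wholly above Control in DSS, where 5.7% of 11952 genes did. The same genes, 2 of 9, lay wholly above Control in Indirubin, where 13% of 14292 genes did and 6.21% lay wholly below. No clock gene lay wholly below the other group in any comparison, and the same genes separated under DESeq2 size factors, library size alone and scaling without mitochondrial genes, with Per1 joining them in Indirubin against Control under library size alone. Mitochondrial shares were 87.5 to 91.3% in Control, 72.4 to 87.7% in DSS and 71.6 to 89.5% in Indirubin, with overlap, and the part of depth or of the neutrophil markers in the REV-ERB values was not tested. Reads of Nr1d1 and of Thra, which lies on the opposite strand and overlaps it by 1075 bases, cannot be told apart there if counting ignored strand. Thra had 11 to 22 counts in Control, 19 to 36 in DSS and 35 to 62 in Indirubin.

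Of the period genes, Per3 did not overlap between Indirubin and DSS, on low counts. Per3, a PER family member with a weaker part in the loop than Per1 and Per2, had 4, 0 and 4 counts in DSS and 10, 26 and 39 in Indirubin, with 13, 4 and 0 in Control. In normalized CPM the DSS libraries were at 0.47, 0 and 0.36, all Indirubin libraries were higher at 1.83, 2.12 and 3.35, and Control spanned both at 2.52, 0.70 and 0. It was 1 of 9 clock genes wholly above DSS in Indirubin, a share near the background of 11.5% of 14848 genes above, with 4.12% below. The log2 fold change was 3.01 (standard error 1.41, interval -0.06 to 6.08), with an adjusted p of 0.668 in edgeR (Benjamini-Hochberg) and 0.301 in DESeq2. Per3 lies within the span of Camta1 on the same strand, and Camta1 had 2, 0 and 13 counts in DSS and 1, 14 and 29 in Indirubin. Its chromosome 4 promoter holds 2 copies of the D-box TTATGNAA, the site bound by DBP, TEF, HLF and the repressor NFIL3.

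Per1, which is switched on both by the clock and by glucocorticoid hormone, had 0, 6 and 4 counts in Control, 12, 0 and 16 in DSS, and 6, 9 and 77 in Indirubin. Indirubin-3, at 6.62 normalized CPM, was apart from the other 8 libraries, which held 0 to 1.46. The log2 fold change for Indirubin against DSS was 1.52 (interval -1.37 to 4.41) and was -0.085 without Indirubin-3. Per2, a main brake on CLOCK and BMAL1, had 0 counts in every Control library, 8, 0 and 0 in DSS, and 0, 7 and 16 in Indirubin, and was too low to pass the filter in any comparison.

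The cryptochromes, the strongest repressors of the loop, overlapped between all groups. Cry1 had 2, 24 and 4 counts in Control, 14, 0 and 22 in DSS, and 0, 10 and 16 in Indirubin. Its log2 fold changes were -0.71 for Indirubin against DSS (interval -4.36 to 2.94) and -0.54 for DSS against Control (interval -3.76 to 2.68), so differences of several fold either way are inside both intervals. Cry2 had 2, 8 and 8 counts in Control, 1, 0 and 8 in DSS, and 8, 6 and 19 in Indirubin, and did not pass the filter.

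To show where clock factors could act in the period and cryptochrome genes, promoters from RefSeq (build GRCm38.p6) were searched on both strands over the 250 bases before each start, for the E-box CACGTG, the D-box TTATGNAA and the REV-ERB core TAGGTCA or TGGGTCA. Of the 10 clock genes 9 had a promoter in the table. These genes had 12 promoters, of which 3 held an E-box (in Per1, Cry1 and Ciart, the last with 3 copies), where 6.02% of 32851 promoters held one. A D-box was in 2 of the 12 (in Per1 and Per3) against 3.07%, and the REV-ERB core in 0 against 5.38%. The 3 promoters below belong to the genes with the smallest p in the test of the 3 groups that held an E-box or D-box, with those sites in capitals.
Per3, chr4:151044666-151044915, minus strand: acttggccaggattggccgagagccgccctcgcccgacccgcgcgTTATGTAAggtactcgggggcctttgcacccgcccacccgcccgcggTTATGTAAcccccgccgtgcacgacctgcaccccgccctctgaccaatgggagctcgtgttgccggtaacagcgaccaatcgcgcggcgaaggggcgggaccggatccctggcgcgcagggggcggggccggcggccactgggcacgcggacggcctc
Per1, chr11:69098699-69098948, plus strand: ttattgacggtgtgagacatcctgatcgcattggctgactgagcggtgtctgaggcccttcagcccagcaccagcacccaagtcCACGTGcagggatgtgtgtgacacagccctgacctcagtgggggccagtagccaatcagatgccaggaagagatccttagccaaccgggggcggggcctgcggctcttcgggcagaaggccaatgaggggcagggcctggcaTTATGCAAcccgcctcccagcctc
Cry1, chr10:85185055-85185304, minus strand: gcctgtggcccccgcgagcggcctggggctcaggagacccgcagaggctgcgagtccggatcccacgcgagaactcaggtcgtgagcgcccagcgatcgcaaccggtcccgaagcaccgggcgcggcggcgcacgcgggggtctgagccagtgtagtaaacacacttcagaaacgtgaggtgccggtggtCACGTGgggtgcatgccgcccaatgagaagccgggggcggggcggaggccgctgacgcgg
The D-boxes of Per3 begin 205 and 158 bases before its start. Per1 carries its E-box at 166 bases and its D-box at 24 bases before the start, and the E-box of Cry1 is at 60 bases. A match describes the letters in the window and is not a measured binding site.

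Dbp, the D-box activator that is among the most rhythmic liver transcripts, was close to the limit of detection: 0, 4 and 0 counts in Control, 0, 0 and 6 in DSS, and 0, 0 and 8 in Indirubin. A single library per group held all its counts, at 0.55 to 0.70 normalized CPM. Ciart (CHRONO), a repressor that binds BMAL1, had 0, 1 and 0 counts in Control, 5, 5 and 0 in DSS, and 0, 8 and 10 in Indirubin. Both genes overlap a gene on the opposite strand (Dbp with Sphk2, Ciart with C920021L13Rik), and neither passed the filter. The genes whose profile over the 9 libraries was most like that of Dbp were Dusp4, Ginm1, S100a1, Lcat and H2-D1 (Pearson r 0.994, 0.880, 0.876, 0.864 and 0.854 on log2 normalized CPM), a description that rests on the 3 libraries with Dbp counts.

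Per kilobase of transcript and over all 9 libraries, the mean levels ran from Nr1d1 (0.831 ± 0.944 normalized CPM per kb, SD, n = 9) through Nr1d2 (0.484), Cry1 (0.379), Clock (0.373), Per1 (0.263), Ciart (0.155), Cry2 (0.143), Per3 (0.131) and Dbp (0.0718) to Per2 (0.0549). Neighbours in this order differed by less than their SD over the libraries. The order pools the groups: in Control the mean of Nr1d1 (0.210) and that of Nr1d2 (0.084) were below those of Cry1 (0.555) and Clock (0.382). That order rested on Control-2 for Nr1d1, since without it the Control means were 0.315 for Nr1d1, 0.0448 for Nr1d2, 0.203 for Cry1 and 0.298 for Clock. Without Indirubin-3 the mean over the other 8 libraries was 0.536 for Nr1d1, still the first, 0.149 for Per1 and 0.0323 for Per2. Nfil3, the D-box repressor whose phase is opposite to that of Dbp, was higher than all of them at 2.20 ± 1.25. In the files' coordinates (GRCm39), Nr1d1 lies on chromosome 11 from 98658758 to 98666159 and Per1 on the same chromosome from 68986043 to 69000786. Nr1d2 lies on chromosome 14 from 4230569 to 4265642, Per3 on chromosome 4 from 151088109 to 151129122, and Clock on chromosome 5 from 76357715 to 76452639.

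**Figure D2:**
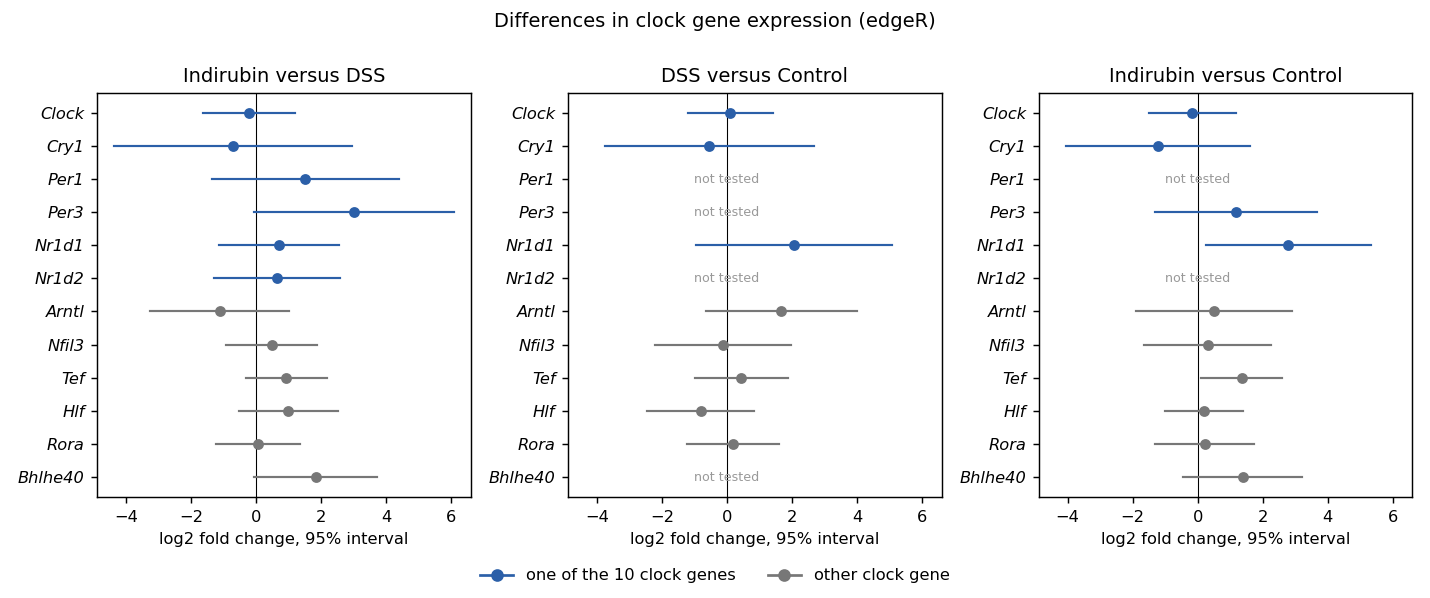
Log2 fold change (horizontal axis) with its 95% interval from edgeR in each comparison, for the clock genes that passed the filter (blue) and 6 other clock genes (grey). All intervals of the 10 clock genes span 0 except that of Nr1d1 in Indirubin against Control, 0.25 to 5.31, whose adjusted p was 0.309.

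In signed terms 4 of 6 tested clock genes were higher in Indirubin than in DSS, 2 of 3 higher in DSS than in Control, and 2 of 4 higher in Indirubin than in Control, where 56.7%, 50.6% and 55.5% of all genes tested were higher. With library size alone the shares of all genes rose to 69.3%, 81.2% and 86.9% (median log2 fold changes of 0.42, 0.69 and 1.09, against 0.15, 0.01 and 0.12 with TMM), and the clock gene counts became 4 of 6, 3 of 3 and 3 of 4. The signs of Clock in Indirubin against Control and of Cry1 in DSS against Control turned under that scaling. Without Indirubin-3, 2 of 6 were higher in Indirubin than in DSS, and without Control-2, 5 of 5 were higher than Control in both DSS and Indirubin.

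Ratios within a library do not depend on the scaling, and Arntl is known to peak at another time of day than the REV-ERB, Per and Dbp transcripts. The log2 ratio of Nr1d1 to Arntl counts, with 2 added to each, was 0.00, -3.17 and 1.00 in Control, -1.20, -0.18 and 1.06 in DSS, and -0.32, -0.92 and 3.86 in Indirubin. The groups overlapped, and so did they for Nr1d2, Per1 and Dbp to Arntl. For Per3 to Arntl the Indirubin libraries, at -0.32, -0.36 and 2.36, were above the DSS libraries, at -3.66, -3.09 and -1, and Control overlapped both. Indirubin-3 had the highest ratio in all 5 pairs, with Arntl at 0.52 normalized CPM, and DSS-1 the lowest for Dbp, both also with 0.5 added to each count. The spread within groups, SDs of 1.13 to 2.60 for Nr1d1 to Arntl, was as large as the differences between the group means of -0.72, -0.11 and 0.87.

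**Figure D3:**
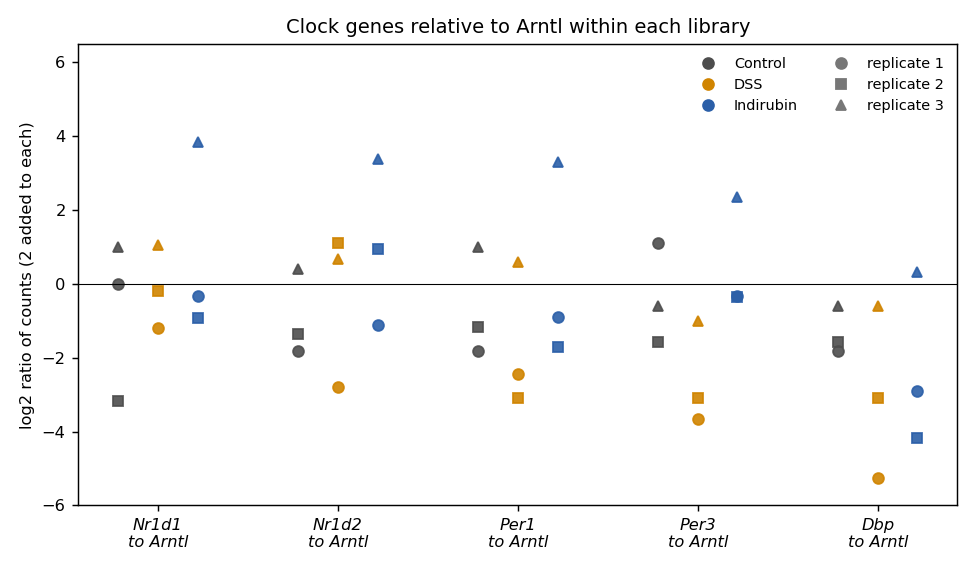
Log2 ratio of each clock gene's counts to those of Arntl (BMAL1) in the same library, 2 added to each count, coloured by group with the marker shape giving the replicate. Indirubin-3 is the highest point in every column, 3.86 for Nr1d1. The other points of the 3 groups interleave except for Per3 in Indirubin and DSS, and for Dbp, where Indirubin-1 and Indirubin-2 lie below all Control libraries.

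Of 16 other clock genes listed, none was called in any comparison by edgeR or DESeq2, which gave Arntl and Hlf no adjusted p in DSS against Control. Among those tested, 8 of 10 were higher in Indirubin than in DSS (median log2 fold change 0.56). They were led by Bhlhe40, an E-box repressor (1.83), and Tef, a D-box activator (0.93), with Arntl (-1.12, and -0.025 without DSS-1) on the lower side. In DSS against Control 5 of 8 were higher (median 0.12), with 0 at an unadjusted p under 0.05. Arntl (1.67, and 0.45 without DSS-1 and 2.74 without Control-2) was the leading higher gene, and the 3 lower genes were Hlf, a D-box activator (-0.80), the clock kinase gene Csnk1d (-0.08) and Nfil3 (-0.13). In Indirubin against Control 9 of 11 were higher (median 0.31, 5 of 11 without Control-3), with 1 at an unadjusted p under 0.05, Tef (1.35, adjusted p = 0.313 in edgeR). Bhlhe40 was at 1.38, and Btrc, a subunit of the ligase that marks PER proteins, was at -0.32. Nfil3 had log2 differences of 0.47, -0.13 and 0.31 in the 3 comparisons.

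Of 25 rhythmic liver output genes, 2 of 17 tested fell in DSS against Control, where 0.708% of 7482 genes were called in either direction. Upp2, a uridine-degrading enzyme, had 161, 170 and 67 counts in Control and 24, 10 and 41 in DSS, a log2 fold change of -3.15 (standard error 0.44, edgeR with Benjamini-Hochberg adjusted p = 0.00419). Elovl3, a fatty acid elongase, had 537, 687 and 465 counts in Control and 73, 112 and 36 in DSS, a change of -3.37 (standard error 0.53, adjusted p = 0.0103). Both lay wholly below Control in DSS, where 7.07% of 11952 genes did, and each missed the threshold without Control-2, at adjusted p = 0.0511 for Upp2 and 0.0539 for Elovl3. Upp2 was also called in the test of the 3 groups (adjusted p = 0.0177 in edgeR), where 7 of 22 tested had an unadjusted p under 0.05 (10.3% of all genes). Of 21 tested for Indirubin against DSS 14 were higher with 0 called by edgeR or DESeq2 (median 0.83), led by Gpcpd1 (1.82) and Lpin1 (2.49), with Avpr1a (-1.94) and Alas1 (-1.01) lower. In edgeR 7 of the 21 had an unadjusted p under 0.05, where 7.67% of all genes did. Of 18 tested for Indirubin against Control 10 were higher with 0 called by edgeR (median 0.60), and 7 had an unadjusted p under 0.05 (13.8% of all genes). The list was led by Lpin1 (3.00) and Cirbp (2.22), with Upp2 (-1.67) and Elovl3 (-3.44) lower. DESeq2 called 1, Lpin1 (adjusted p = 0.00773), and edgeR called it with library size alone, with no filter and without Indirubin-1. Cirbp was called by edgeR with library size alone and with no filter, and Upp2 and Elovl3 with no filter and without Indirubin-1, when they stood at -2.53 (adjusted p = 0.00835) and -7.55 (0.000322). Indirubin-1 held 167 of the 182 counts of Elovl3 in Indirubin and another library 0, so the value of -7.55 rests on few counts and is no bound. In Indirubin against DSS Lpin1 was called with no filter (adjusted p = 0.0496 in edgeR). With library size alone 14 of 17 genes of the list were higher in DSS than in Control (9 with TMM) and 16 of 18 higher in Indirubin than in Control.

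**Figure D4:**
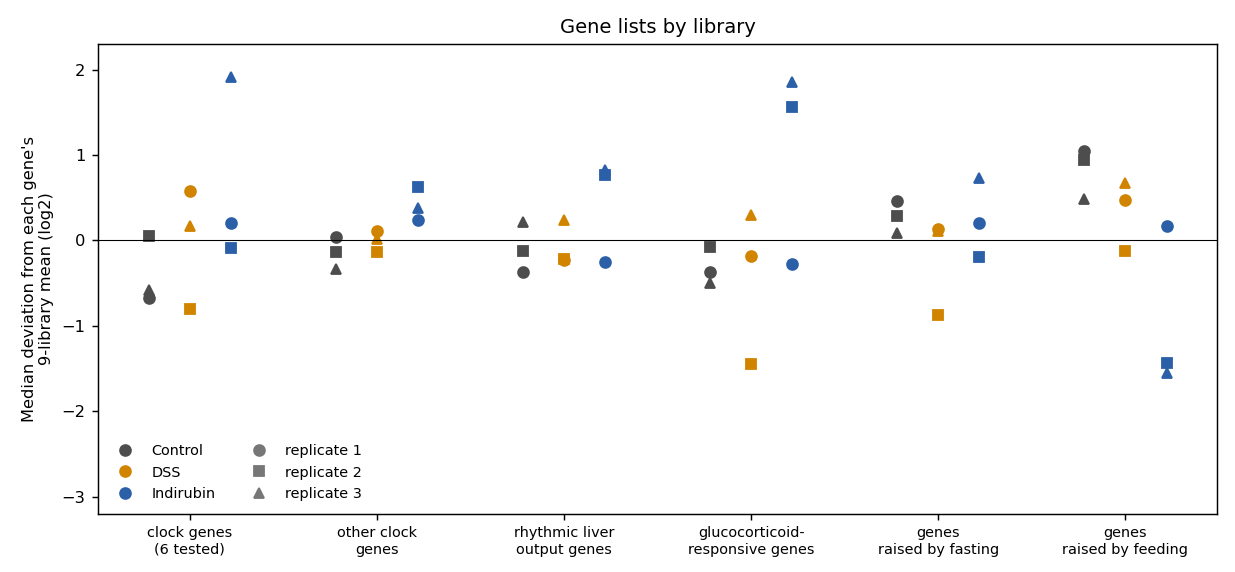
Median over the genes of a list of the deviation of log2 normalized CPM from each gene's 9-library mean (vertical axis), by library, coloured by group. For the clock genes Indirubin-3 stands at 1.91, above the other 8 libraries at -0.80 to 0.58, while Indirubin-2 (1.56) and Indirubin-3 (1.86) stand apart for glucocorticoid-responsive genes and, on the low side, for genes raised by feeding (-1.43 and -1.56).

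The libraries of the Indirubin group did not move together in genes that follow hormone and food. For glucocorticoid-responsive genes, a list that holds Per1, the median deviations were -0.28, 1.56 and 1.86 in Indirubin-1, Indirubin-2 and Indirubin-3, and for the lipogenic genes raised by feeding 0.17, -1.43 and -1.56. The median deviations of the 6 clock genes tested over all libraries were 0.20, -0.09 and 1.91. Indirubin-2 was near Indirubin-3 for Nr1d2 (5.55 and 6.97 normalized CPM) and below it for Nr1d1 (1.39 and 9.80). Indirubin-1 also differed from Indirubin-2 and Indirubin-3 in mitochondrial share (89.5% against 71.6% and 77.2%), in counts on nuclear genes (701804 against 1910420 and 1771035) and in summed neutrophil markers (26.7 against 243 and 84.5 normalized CPM). The part of these, or of the acinar transcripts, in the 3 lists was not tested.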

How the data were processed

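Liver RNA was extracted by the authors with a micro kit, libraries were made from 400 ng and sequenced on a DNBSEQ instrument, and reads were aligned to the mouse genome, GRCm39 per the submitters' processing notes. The aligner, counting program, strand setting and annotation are not given in the sources used here. The authors deposited whole-number counts per gene, not normalized, for 9 libraries (6514863 to 7944684 counts each), and these alone were used. The FPKM columns, the authors' own comparison columns (group means, log2 fold changes, p-values) and 3 lists of group-specific genes were not used.

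The 10 genes, the gene lists and the tests were chosen with earlier results of these data known. The main test used edgeR 4.0.16 (R 4.3.3): TMM, filterByExpr defaults (minimum count 10, minimum total 15), glmQLFit and glmQLFTest, 6 libraries per comparison or all 9 for the test of the 3 groups, with Benjamini-Hochberg adjustment over all genes tested and calls at an adjusted p under 0.05. The standard error is the log2 fold change divided by the square root of F. The steps were checked on simulated data. DESeq2 1.42.0 was the alternative test. Other alternatives were DESeq2 size factors, library size alone, no mitochondrial genes, no filter, at least 10 counts in every library, all 9 libraries in 1 fit, the replicate number as a block, and each library left out. Counts of list genes and of all genes called, overlap under other scalings, mean levels without 1 library, and the ratio priors other than for Dbp were added after the data were seen. The labels number the libraries without naming animals, so p-values measure only the spread between these libraries, and no library was a copy of another (highest r 0.894). Named were all 10 genes, Arntl, Npas2 and Nfil3, and of each list the genes called or, where none was, the 2 with the smallest p each way. Some results of this rule are not reported here. Levels per kb used the deposited gene lengths, log2 levels a prior count of 2, and figures were drawn with matplotlib 3.10.9 in Python 3.11.15.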

Additional observations from a re-analysis of the deposited data

How the results depend on the processing

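The 0 calls among the 10 clock genes held in all 3 comparisons and in the test of the 3 groups under every alternative run (14 per comparison, 16 for the 3 groups). The lowest adjusted p reached was 0.301 for Indirubin against DSS, 0.439 for DSS against Control, 0.0619 for Indirubin against Control (Nr1d1, library size alone) and 0.140 for the 3 groups. Numbers of all genes called moved more: 0 to 156 for Indirubin against DSS (0 in the reported fit, 156 with no filter), 11 to 143 for DSS against Control (53, with 143 in DESeq2 and 12 without Control-2), 1 to 465 for Indirubin against Control (19, with 1 without Control-2 and 465 without Indirubin-1) and 43 to 373 for the 3 groups (64, with 373 without Indirubin-1). The cause was not tested.

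With the replicate number as a block, 3, 30 and 49 genes were called in the 3 comparisons and 0 clock genes. By the numbers in the sample titles, same-numbered libraries did not deviate together (r -0.0962 to 0.0814), so these numbers were not taken as pairs. The library names number the Indirubin libraries differently from the titles, and a pairing by those names was not examined. Under the block Nfil3 in DSS against Control was at 0.48, Acaca in Indirubin against DSS at -0.0065 and Acacb in Indirubin against Control at -0.029 on the log2 scale. With library size alone the signs of Cry1 (0.25), Csnk1d (0.55) and Nfil3 (0.37) turned in DSS against Control, and those of Clock (0.57), Btrc (0.82) and Angptl4 (0.038) in Indirubin against Control. With no filter Acaca was at -0.089 in Indirubin against DSS.

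Signs that turned when 1 library was left out are given as ranges of the log2 fold change. For Indirubin against DSS they were -0.89 to 0.12 for Clock, -0.085 to 1.97 for Per1, -0.74 to 1.13 for Nr1d1 and -0.38 to 0.26 for Acaca. For DSS against Control they were -0.21 to 0.45 for Clock, -1.05 to 0.83 for Cry1, -0.55 to 0.22 for Csnk1d and -0.77 to 0.29 for Nfil3. For Indirubin against Control they were -0.86 to 0.17 for Clock, -1.99 to 0.15 for Cry1, -0.0089 to 1.58 for Arntl, -0.29 to 0.74 for Nfil3, -0.75 to 0.84 for Btrc and -0.85 to 0.55 for Acacb. Upp2 in DSS against Control was also lost with library size alone (adjusted p = 0.189 in edgeR) and Elovl3 with all 9 libraries in 1 fit (0.405). Low depth limits these genes: 4 of the 10 passed the filter in no comparison.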

Other observations

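Genes that answer to glucocorticoid hormone had higher values in Indirubin than in DSS and Control for every listed gene tested, with 0 called by edgeR in those comparisons. All 12 were higher than in DSS (median log2 fold change 1.53, with 0.15 over all genes, of which 56.7% were higher), with 5 at an unadjusted p under 0.05 (7.67% of all genes), 0 called by edgeR and 1 by DESeq2, which called 80 of all genes there. Without Indirubin-1 edgeR called Fkbp5 (adjusted p = 0.00261) and Ddit4 (0.0138), and with no filter both as well. Fkbp5, which encodes a co-chaperone of the hormone's receptor, had 7, 35 and 12 counts in Control, 15, 6 and 46 in DSS, and 14, 503 and 469 in Indirubin, so that Indirubin-1 lay within the range of the other groups. Ddit4, a stress-induced brake on mTOR signalling, followed the same split with 21, 285 and 592 counts in Indirubin. Among the 3 groups Fkbp5 (adjusted p = 0.0322) and the metallothionein gene Mt2 (0.0495) were called by edgeR with Benjamini-Hochberg adjustment. Mt2 had 0 counts in all Control libraries, 0, 0 and 16 in DSS, and 0, 165 and 347 in Indirubin, and its adjusted p in DESeq2 was 0.571. All 10 tested were also higher than in Control (median 1.53), with 0 called by edgeR, led by Lcn2 and Fkbp5. DESeq2 called 1, Fkbp5 (adjusted p = 0.0114), and edgeR called both with library size alone, with no filter and without Indirubin-1. It called Lcn2 also with all 9 libraries in 1 fit (adjusted p = 0.0271 in edgeR). Lcn2, an acute-phase gene of that list, rose in DSS against Control from 28, 0 and 0 to 139, 1192 and 2633 counts (log2 fold change 6.40, standard error 1.18, adjusted p = 0.0239 in edgeR). That call was lost in DESeq2, with library size alone, with the replicate block, with all 9 libraries in 1 fit, and without Control-2, Control-3 or DSS-3 (adjusted p 0.0758 to 0.180). The value rests on Control-1, which holds all the Control counts: without it both remaining Control libraries are at 0 and the fitted value of 13.1 is no bound. In that comparison 5 of 10 genes of the list were higher, 8 of 10 with library size alone and 8 of 11 without DSS-2.

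Genes raised by feeding had lower values in Indirubin-2 and Indirubin-3, with median deviations from the 9-library mean of -1.43 and -1.56 on the log2 scale, against 0.17 in Indirubin-1. The libraries with the low values also held 1510 and 1503 normalized CPM of pancreatic acinar markers, against 8.23 in Indirubin-1, and the part of these transcripts in this list and in the glucocorticoid list was not tested. Of 11 tested, 9 were lower than in DSS (median -1.46) and 10 lower than in Control (median -1.99), with 4 and 5 at an unadjusted p under 0.05 (7.67% and 13.8% of all genes), 0 called by edgeR, and 2 and 4 called by DESeq2, which called 80 and 316 of all genes. Angptl8, a feeding-induced hormone-like inhibitor of lipase, had 172, 163 and 136 counts in Control, 1744, 567 and 639 in DSS, and 21, 195 and 29 in Indirubin, and differed among the 3 groups (adjusted p = 0.00727 in edgeR). Against DSS it was -4.02 on the log2 scale, while Acacb (1.71) and Acaca (0.02) were on the higher side. The missed call of Angptl8 depended on the setting: it passed in edgeR with no filter, with each library required to hold 10 counts (adjusted p = 0.0478), with the replicate block (0.0167), with all 9 libraries in 1 fit (0.0182) and without Indirubin-1 (0.0376), and in DESeq2. Against Control the leading genes were Srebf1 (-2.15) and Fasn (-2.21), with Acacb at 0.23. DESeq2 called Srebf1 (adjusted p = 0.0195) and Fasn (0.0336) there. EdgeR called both with no filter (adjusted p = 0.0444 and 0.00451) and without Indirubin-1 (0.0219 and 0.00341), and Fasn with the replicate block (0.0479). In DSS against Control 3 of 11 were higher and 0 called by edgeR, Angptl8 (1.99, adjusted p = 0.0556) above and Thrsp (-0.97) and Acaca (-1.05) below. DESeq2 called Angptl8 there (adjusted p = 0.000464), as did edgeR with no filter, with the minimum of 10 counts per library and without DSS-3. With library size alone 8 of 11 were higher, and when each library was left out 1 (without Control-3) to 5 (without Control-1) were. Of the genes raised by fasting edgeR called 0 in Indirubin against DSS, DSS against Control and Indirubin against Control (0%, 0.708% and 0.236% of all genes). In the same order 8 of 11, 4 of 10 and 7 of 11 were higher (56.7%, 50.6% and 55.5% of all genes). The count for DSS against Control was 8 of 10 with library size alone and 2 of 10 without Control-3, and that for Indirubin against Control was 9 of 11 with library size alone. DESeq2 called 0, 1 (Angptl4, adjusted p = 0.00340) and 1 (G6pc, 0.000435), where it called 0.878%, 3.71% and 3.92% of all genes. In other settings edgeR called G6pc in Indirubin against Control with no filter, that minimum of 10 counts, the replicate block, all 9 libraries in 1 fit and without Indirubin-1. It called Angptl4 in DSS against Control with that minimum. With no filter edgeR also called Igfbp1 in Indirubin against DSS (adjusted p = 0.0189) and against Control (0.0161), and Cyp4a14 in DSS against Control (0.0356). Igfbp1 (2.12, and 1.11 to 3.27 when each library was left out) and Pck1 (0.91) were above and G6pc (-1.45) and Cyp4a14 (-1.67) below DSS in Indirubin. Cyp4a14 (2.00) and Pdk4 (1.17) were above and Angptl4 (-1.69) and G6pc (-1.01) below Control in DSS. When each library was left out, Cyp4a14 ranged from 1.33 to 3.09 and Pdk4 from 0.37 to 3.55. Igfbp1 (1.73, and 0.73 to 2.43 when each library was left out) was above and G6pc (-2.47) and Angptl4 (-0.99) were below Control in Indirubin. Fgf21 had 0, 1 and 0 counts in Control and 12, 12 and 32 in Indirubin.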
